A study of Rattus norvegicus with 6 samples.

Results

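Of 884 array probes measured in the rat hypothalamus, 663 passed a filter on mean intensity. Of these, 153 differed at least 2-fold between a sample labelled with 30 days of heat acclimation and an untreated control. Both samples were from normally hydrated rats. The 153 probes were chosen by this difference and by the filter, which used all 6 samples. A probe was a member if its quantile-normalized intensity at 30 days was at least 2-fold above or below the control, among 663 probes whose mean over the 6 samples exceeded the 25th percentile of all probe means. Members numbered 87 that were higher at 30 days and 66 that were lower. They make up 23.4% of the 655 kept probes with a value above the intensity floor in either sample (13.3% higher and 10.1% lower). With the values as deposited, without normalization, the same rule gives 77 higher and 114 lower probes, of which 140 are among the 153. Because these values chose the members, they are a description with no test.

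Heat acclimation is the slow adjustment of an animal to lasting warmth, in which sweating or salivation, blood flow, heart rate and metabolism come to be set differently. The hypothalamus holds the neurons that sense core and skin temperature and drive these responses. It also holds the osmosensitive neurons that make vasopressin, the hormone that conserves water, and that drive thirst, so heat and water loss act on the same small brain region. Acclimation is commonly described as an early stage, when nervous responses carry the load, followed by a late stage in which the tissues themselves have changed.

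The series crossed 3 heat stages with 2 hydration states in 6 samples, 1 per combination. The euhydrated samples, from rats with normal body water, were an untreated control, a sample from short-term heat acclimation (2 days) and a sample from long-term heat acclimation (30 days). The hypohydrated samples came from rats deprived of water to a 10% loss of body weight, either with no heat in the label or with 2 or 30 days of heat acclimation. Some labels of heated samples speak of rats both before and during the heat, so sampling at the named stage is assumed here and not stated. No strain, age, sex or heat temperature is given in the sources used here. The tissue could not be checked against marker genes, because the probe identifiers are not paired with genes. None of the 884 identifiers matched a rat gene table (RefSeq, GRCr8), so probes are named by identifier and no gene, sequence or position is given. In whole tissue, fewer cells of a type and less RNA per cell cannot be told apart.

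The values are processed array intensities that the authors deposited, with column medians between 0.353 and 0.686 before normalization. The series text counts 9 arrays per hydration state while 3 columns were deposited for each, so each column may stand for several arrays. With 1 column per group there is no replicate error and no p-value, and a difference below is a difference between these columns. Differences are log2 differences, or folds, of quantile-normalized intensity. Values under 0.143, the 10th percentile of all normalized values, were set to 0.143, and a fold against such a value is a lower bound, written "at least".

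The probes higher at 30 days started from low control levels. Their median intensity was 0.237 in the control and 0.697 at 30 days, against a median of 0.629 and 0.627 for all 663 kept probes in those samples. None of the 87 lay above the median of kept probes in the control, and 55 did at 30 days. The median difference was 1.43 log2 units, or 2.69-fold, with a range from 1.01 to 2.66. In 13 of the 87 the control value lay at the floor, so their folds are lower bounds. The probes lower at 30 days went from a median of 0.659 in the control to 0.227, with a median difference of -1.39 log2 units and a range from -2.27 to -1.0. Of these 66, 34 lay above the median of kept probes in the control and 1 did at 30 days, where 5 lay at the floor.

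**Figure D1:**
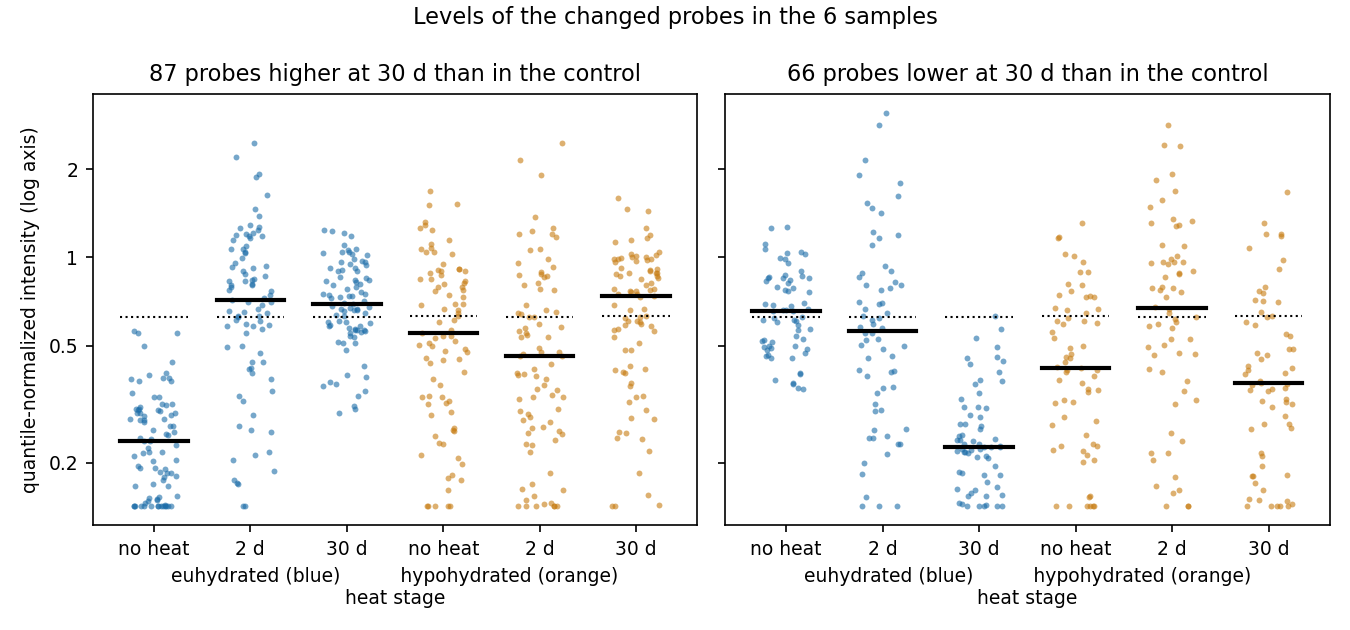
Quantile-normalized intensity (log axis) of the 87 probes higher at 30 days (left) and the 66 lower (right) in each of the 6 samples, with 1 point per probe, thick bars for the median of the shown probes and dotted bars for the median of all 663 kept probes. The medians of the higher probes are 0.237 in the control and 0.697 at 30 days, and the 3 hypohydrated medians lie between 0.462 and 0.738.

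At the 2-fold threshold the set has no gap. On the higher side R165 was just inside at 2.02-fold, and R265, whose fold rounds to 2.00, was just outside. On the lower side RG528 was just inside at 2.00-fold and RG214 just outside at 1.99-fold. Between 1.9-fold and 2.1-fold lay 20 probes on the higher side and 23 on the lower side.

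The 2-day sample divided the members unevenly between the directions. Of the 87 probes higher at 30 days, 62 were also at least 2-fold higher at 2 days, 23 were under 2-fold and 2 were at least 2-fold lower. Of the 66 probes lower at 30 days, 17 were also at least 2-fold lower at 2 days, 37 were under 2-fold and 12 were at least 2-fold higher. Over all 663 probes 30.0% were at least 2-fold higher and 28.8% lower at 2 days. Both differences use the same control column, so a low or high control value moves them together, and these counts follow from the rule. With the values as deposited, 43 of 114 lower members were also lower at 2 days and 22 were higher. All probes there had 32.6% lower and 34.4% higher. With each column scaled by its median 33 of 87 were lower and 16 higher, against 34.8% and 31.5% of all probes.

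**Figure D2:**
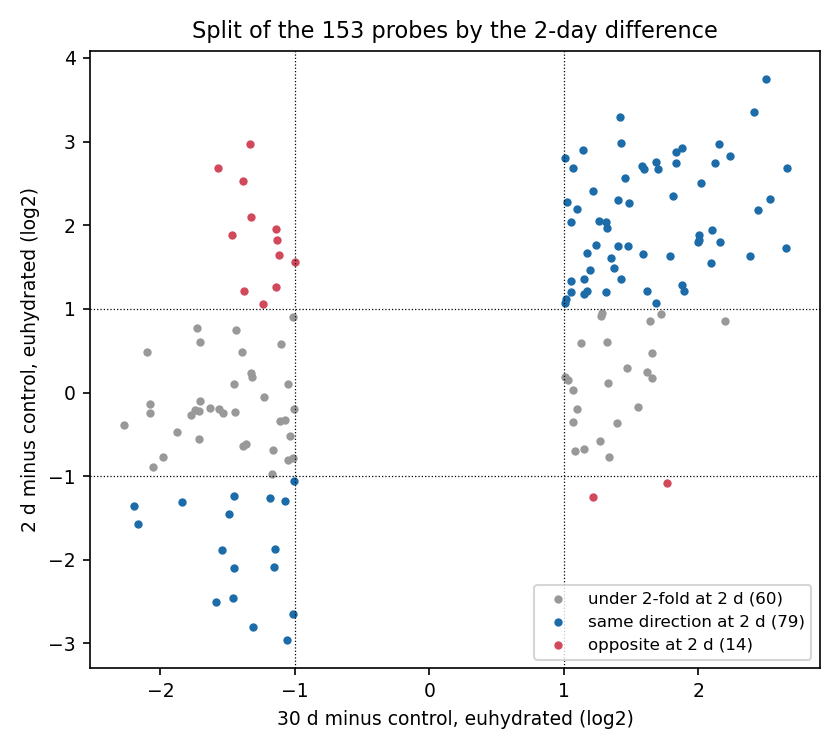
Log2 difference from the control at 30 days (x axis) and at 2 days (y axis) in the euhydrated samples for the 153 probes, with dotted lines at 2-fold and colours for the classes that the 2-day value defines. The 79 probes in the same direction at 2 days lie mostly on the higher side (62 of 79), and the 14 in the opposite direction mostly on the lower side (12 of 14).

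Among the 62 probes higher at both times, 47 had 2-day and 30-day values within 2-fold of each other. The other 15 were at least 2-fold lower at 30 days than at 2 days, and 0 were higher, with a median of -0.41 log2 units from 2 to 30 days. R596 was the leading probe among those above the floor in the control and at 30 days. R444 and R102, with the control at the floor, differed more, by at least 6.31-fold and 6.30-fold. R596 had intensities of 0.167 in the control, 0.830 at 2 days and 0.964 at 30 days. In hypohydrated rats it had 1.51 without heat, at most 0.143 at 2 days and 1.44 at 30 days. Both heated euhydrated values and both hypohydrated values outside the 2-day stage were thus high, and the control and the 2-day hypohydrated value were low. R596 was 5.79-fold higher at 30 days than in the control, and 7.12-fold in the deposited values.

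R670, also higher at both times, had 0.202 in the control, 0.630 at 2 days and 1.06 at 30 days. Its hypohydrated values were 0.512, 0.341 and 0.763 in the same order of heat stages. All 3 lay above the control and below the 30-day euhydrated value, and the 30-day fold against the control was 5.24.

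The 23 probes higher at 30 days alone had a median intensity of 0.301 in the control, 0.326 at 2 days and 0.738 at 30 days. R447 had 0.169 in the control, 0.326 at 2 days and 0.558 at 30 days, a 3.29-fold difference at 30 days. Its hypohydrated values were 0.815 without heat, 0.15 at 2 days and 0.903 at 30 days, so the low value there was the 2-day one. RG404 had a like profile, with 0.225, 0.255 and 0.711 in euhydrated and 0.695, 0.301 and 1.00 in hypohydrated rats.

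R625 and R025 are the members higher at 30 days and lower at 2 days. R625 had 0.302 in the control, at most 0.143 at 2 days and 1.03 at 30 days, and 0.487, 0.163 and 0.919 in hypohydrated rats. R025 had 0.404, 0.170 and 0.942 in euhydrated and 0.745, 0.162 and 0.571 in hypohydrated rats. For both probes the 2-day value was the lowest of its hydration state. Against the sample without heat, R625 was 2.99-fold and R025 4.61-fold lower in the 2-day hypohydrated sample. As deposited, with no floor, R625 was 17.6-fold and R025 23.8-fold lower.

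The 37 probes lower at 30 days and under 2-fold at 2 days had medians of 0.658 in the control, 0.595 at 2 days and 0.223 at 30 days. In 25 of them (67.6%) the 30-day euhydrated value was the lowest of all 6 samples, as in 16.4% of all kept probes. That value chose the members, so this count follows in part from the rule. R518 had 0.830 in the control, 0.632 at 2 days and 0.172 at 30 days, and 0.771, 0.967 and 0.547 in hypohydrated rats. The 30-day euhydrated value stood apart, 4.84-fold below the control and 3.19-fold below the 30-day hypohydrated value. RG171 had 0.767, 0.649 and 0.181 in the euhydrated samples and was low in all hypohydrated samples, at 0.229, 0.252 and 0.309. Before normalization its hypohydrated value without heat was 1.38-fold below the control.

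The 17 probes lower at both times had medians of 0.849, 0.233 and 0.311 in the control, at 2 days and at 30 days. RG478 had 0.663, 0.259 and 0.145 in euhydrated and 0.669, 0.215 and 0.271 in hypohydrated rats. It was high without heat and low at both heat stages in both hydration states. RG303 had 0.691, 0.233 and 0.154 in euhydrated rats but 0.356, 0.408 and 0.367 in hypohydrated rats, where both heated values lay within 1.15-fold of the sample without heat. Before normalization they were 1.52-fold lower at 2 days and 1.36-fold lower at 30 days. The 30-day folds were 4.57 for RG478 and 4.49 for RG303.

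The 12 probes lower at 30 days but higher at 2 days had a median of 0.433 in the control, 1.58 at 2 days and 0.173 at 30 days. Their 30-day minus 2-day difference had a median of -3.03 log2 units, the largest in size of the 6 classes. The split requires opposite differences past 2-fold from the same control, so a large difference between 2 and 30 days follows from it. RG512 had 0.483, 3.10 and 0.163 in euhydrated and 0.204, 2.82 and 0.419 in hypohydrated rats. R483 had 0.515, 1.9 and 0.186 in euhydrated and 0.153, 1.68 and 0.15 in hypohydrated rats. Both probes were highest in the samples of 2 days in each hydration state.

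**Figure D3:**
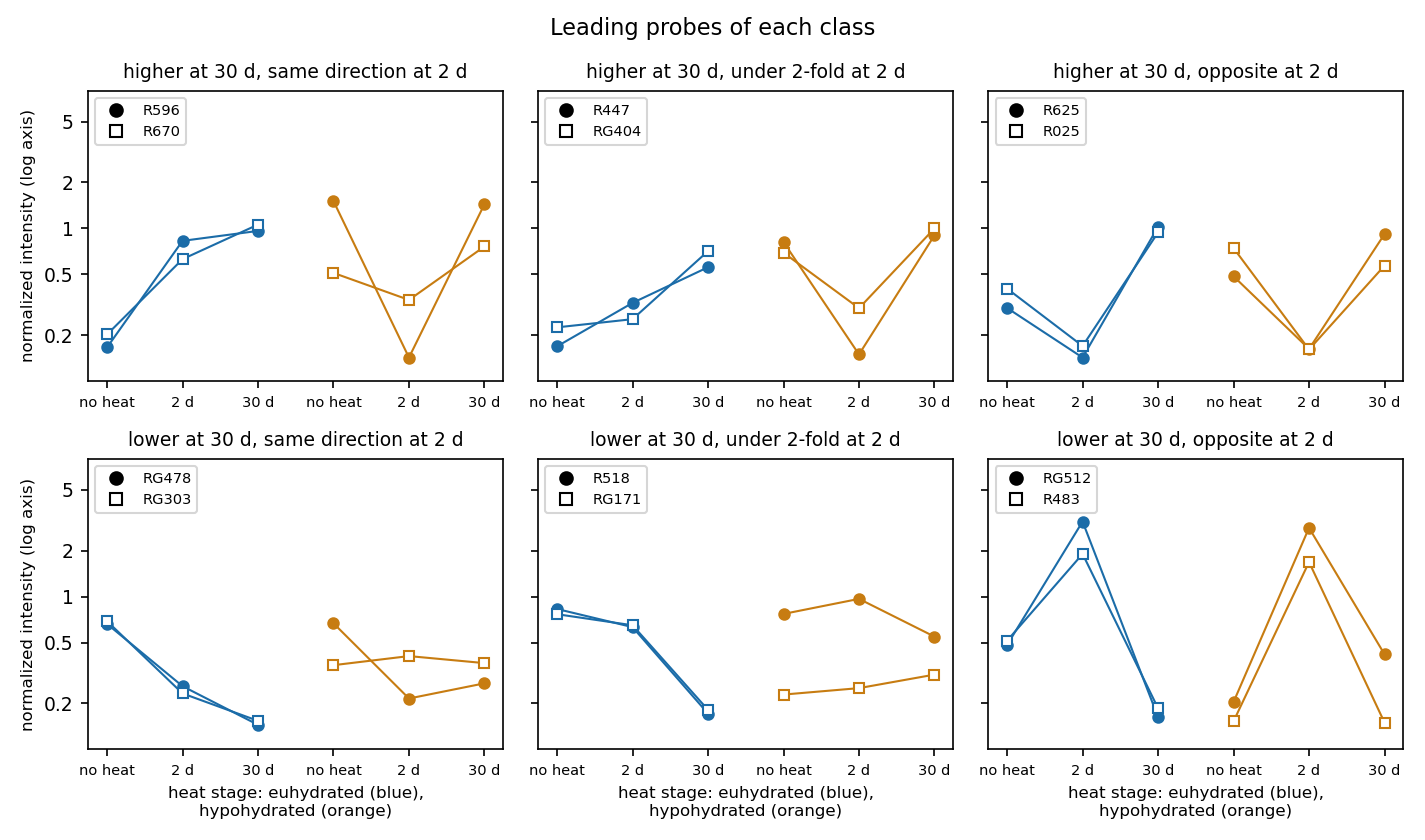
Quantile-normalized intensity (log axis) of the leading probes of each class at the 3 heat stages, in euhydrated (blue) and hypohydrated (orange) samples, with 1 sample per point. RG512 and R483 peak at 2 days in both hydration states, while R596 is high at 2 days in the euhydrated sample (0.830) and at the floor (0.143) in the hypohydrated one.

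Whether the 30-day change recurred in hypohydrated rats was read from the 30-day and the unheated hypohydrated samples, which are not in the difference that chose the members. All 6 columns entered the normalization and the filter on the probe mean. Of the 87 higher members 7 were at least 2-fold higher at 30 days there and 2 at least 2-fold lower, against 5.50% and 5.66% of all tested probes. As shares of the 87 these counts are 8.05% and 2.30%, and the first lies near that of all probes. Of the 66 lower members 8 (12.1%) were at least 2-fold lower and 3 (4.55%) at least 2-fold higher. The median difference was 0.16 log2 units for the higher members and -0.02 for the lower members, against 0.00 for all kept probes. A difference above 0 was seen in 58 of the 87 higher members (66.7%), in 30 of the 66 lower members (45.5%) and in 48.0% of all kept probes.

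The counts depend on the scaling. In the deposited values 0 of 77 higher members were at least 2-fold higher at 30 days in hypohydrated rats and 21 of 114 lower members were at least 2-fold lower, where all probes had 0.151% and 9.35%. With median scaling these were 1 of 93 and 6 of 87, against 1.06% and 4.22%. The deposited columns differed in spread, with an SD of log2 intensity over kept probes of 0.58 in the unheated and 0.88 in the 30-day hypohydrated sample. The part of this in the counts was not tested.

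R609 and R432 were the higher members past 2-fold in both hydration states with the largest hypohydrated difference. R609 had 0.336, 1.63 and 0.682 in the control, at 2 days and at 30 days, and 0.247, 0.691 and 0.886 in hypohydrated rats, where it was 3.59-fold higher at 30 days than without heat. R432 had 0.151, 0.804 and 0.351 in euhydrated and 0.207, 0.476 and 0.670 in hypohydrated rats, a 3.24-fold difference at 30 days in the latter. After normalization both were lowest without heat in each hydration state. In the deposited values the hypohydrated difference was under 2-fold for both (1.76-fold and 1.53-fold), the euhydrated difference of R609 was also 1.76-fold, and R432 was 1.02-fold lower at 2 days than without heat in hypohydrated rats.

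RG478 and RG132 were their counterparts among the lower members above the floor. RG478, described above, was 2.47-fold lower at 30 days than without heat in hypohydrated rats, and 2.42-fold in the deposited values. RG132 had 0.487, 0.303 and 0.218 in euhydrated and 0.968, 1.31 and 0.403 in hypohydrated rats, where it was 2.40-fold lower (2.17-fold as deposited). Its 30-day value was the lowest of each hydration state.

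**Figure D4:**
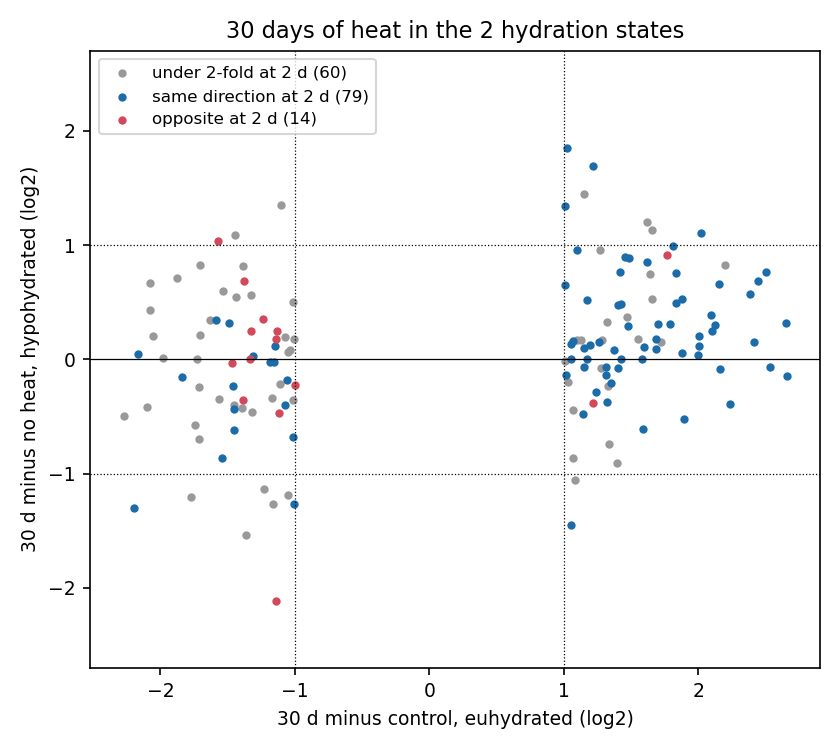
Log2 difference after 30 days of heat in euhydrated rats (x axis, which chose the 153 probes) and in hypohydrated rats (y axis, against hypohydrated without heat), with dotted lines at 2-fold. Of the 153 points 133 lie within 2-fold on the y axis, with 7 of 87 higher probes above and 8 of 66 lower probes below that band.

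At 2 days in hypohydrated rats the classes of members gave different counts. Neither column is in the differences that chose and divided the members, though both entered the normalization and the filter. A probe low elsewhere could pass the filter through a high 2-day value, so the counts are a description. Over all 663 probes 23.2% were at least 2-fold higher at 2 days than without heat in hypohydrated rats and 25.5% lower. Of the 12 probes that were higher at 2 days and lower at 30 days in euhydrated rats, 10 (83.3%) were at least 2-fold higher at 2 days here and 0 lower, with a median of 2.31 log2 units and all 12 above 0. RG512 was 13.8-fold and R483 11-fold higher. In the deposited values these were 6.30-fold and 4.83-fold.

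The 62 probes that were higher at both 2 and 30 days in euhydrated rats went both ways at 2 days in hypohydrated rats. There 17 (27.4%) were at least 2-fold higher and 17 lower, with a median of -0.01 log2 units and a range from -3.40 to 3.79. R596 was the lowest of the named probes, at least 10.6-fold below the sample without heat. Among 125 kept probes that were higher at 2 days in euhydrated rats but were no members, 43 (34.4%) were at least 2-fold higher and 10 (8.0%) lower in hypohydrated rats. The median levels in hypohydrated rats without heat were 0.586 for the 62 probes, 0.309 for the 12 and 0.625 for the 125, and in the control 0.199, 0.433 and 0.293. The part of these starting levels in the counts was not tested. In the deposited values 10 of 22 probes of the class lower at 30 days and higher at 2 days, and 5 of 62 of the class higher at both times, were higher at 2 days in hypohydrated rats, against 11.2% of all probes. Of those 62 as many as 26 were lower, against 30.9% of all probes, so they no longer went evenly both ways. With median scaling 12 of 16 and 17 of 71 were higher, against 25.3%.

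Among the 17 probes lower at both times more were lower than higher at 2 days in hypohydrated rats. At least 2-fold lower were 10 of the 17 (58.8%) and 1 was higher, with a median of -1.63 log2 units. The 172 other kept probes that were lower at 2 days in euhydrated rats had 73 (42.4%) lower and 20 (11.6%) higher. The share lower was 19 of 43 (44.2%) in the deposited values, 11 of 33 (33.3%) with median scaling and 14 of 33 (42.4%) with no filter on low probes. Of all tested probes 30.9%, 22.8% and 22.9% were lower in these settings. RG478 was 3.10-fold lower and RG303 1.15-fold higher, but as deposited both were lower, by 9.75-fold and 1.52-fold.

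After normalization, members that had changed under 2-fold at 2 days in euhydrated rats went mostly against their 30-day direction at 2 days in hypohydrated rats, where they were past 2-fold. Of the 37 lower ones 17 (45.9%) were at least 2-fold higher and 0 lower. The 2-day hypohydrated value entered the filter on the probe mean. A probe low elsewhere could thus be kept through a high value there, which can raise this count. Of the 23 higher ones 11 (47.8%) were at least 2-fold lower and 3 (13.0%) higher. Among 213 other kept probes under 2-fold at 2 days these shares were 20.2% higher and 21.6% lower. Median levels without heat in hypohydrated rats were 0.394 for the lower ones, 0.519 for the higher ones and 0.682 for the 213. R447 was 5.44-fold lower at 2 days there and RG404 2.31-fold, and 29.7-fold and 4.19-fold as deposited. R518 was 1.25-fold higher (1.16-fold as deposited). RG171 was 1.10-fold higher after normalization but 3.69-fold lower as deposited. For the lower ones the counts were near even in the deposited values, where 8 of 49 (16.3%) were higher and 7 (14.3%) lower. Of 12 higher ones 6 were lower and 2 higher there. Without normalization all probes had 11.2% higher and 30.9% lower at 2 days in hypohydrated rats. The lower members as a whole then had 18 of 114 (15.8%) at least 2-fold higher and 27 (23.7%) lower, against 28 and 10 of the 66. More were thus lower than higher, but the share higher stayed above that of all probes and the share lower below it. Of 77 higher members 7 (9.09%) were higher and 35 (45.5%) lower.

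**Figure D5:**
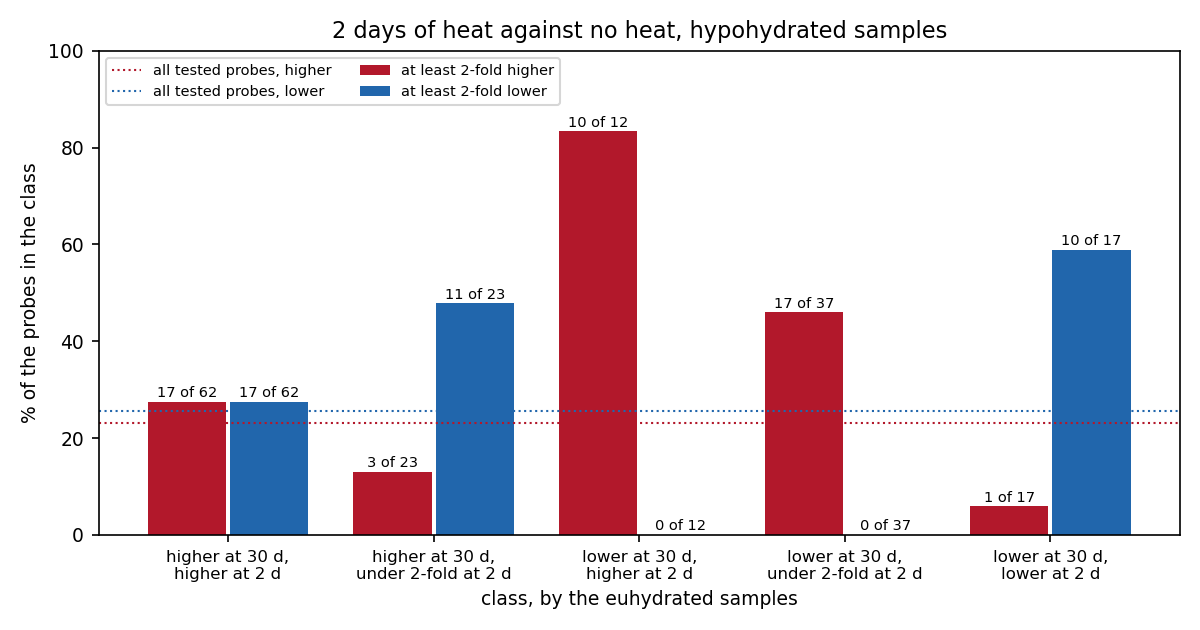
Percentage of each class of members that was at least 2-fold higher (red) or lower (blue) at 2 days of heat than without heat in hypohydrated rats, with dotted lines for all tested probes (23.2% and 25.5%). The 12 probes lower at 30 days and higher at 2 days stand at 83.3% higher and 0 lower, and the 62 higher at both times at 27.4% each way. The 2 probes higher at 30 days and lower at 2 days are not drawn.

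Water deprivation without heat was compared with the control. Of the 87 higher members 49 were at least 2-fold above the control in unheated hypohydrated rats and 0 below it, against 19.8% and 17.7% of all tested probes. Of the 66 lower members 25 were at least 2-fold below and 2 above. This difference uses the control column that also chose the members, so a control value that was low or high by itself moves both, and nothing is read from the counts. The control was the lowest of the 6 columns for 52 of the 87 higher members, and for 18.7% of all kept probes. In 53 of the 87 all 3 hypohydrated values lay above the control, as they did in 195 of all 663 kept probes. With the values as deposited 71 of 77 higher members were at least 2-fold above the control. Of 114 lower members 2 (1.75%) were below it and 15 (13.2%) above, the reverse of the counts after normalization. The median of all kept probes was itself 0.42 log2 units above the control there. Of all probes 33.6% were higher and 4.07% lower.

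R596 again led the named probes in this comparison, 9.07-fold above the control, followed by R689 at least 5.43-fold above it and R447 at 4.81-fold. As deposited these were 11.5-fold, 15.3-fold and 8.14-fold. On the lower side RG356 was 4.06-fold, R483 3.37-fold and RG171 3.36-fold below it, but in the deposited values the 3 were under 2-fold, at 1.35-fold, 1.07-fold and 1.38-fold. RG478 and R518 were within 1.01-fold and 1.08-fold of the control, and 1.47-fold and 1.22-fold above it as deposited.

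Within the 30-day stage the hypohydrated sample had many of the lower members at higher values. Of the 66 lower members 23 were at least 2-fold above the 30-day euhydrated sample and 1 below it, against 17.9% of all tested probes in each direction. Of the 87 higher members 16 were at least 2-fold below it and 8 above. The 30-day euhydrated column chose the members, so a value that was extreme there moves these counts too. Without normalization the higher members had 2 of 77 (2.60%) below and 16 (20.8%) above. The lower members had 63 of 114 (55.3%) above and 1 below. All probes there had 30.3% above and 7.39% below. RG127 was 3.26-fold, R518 3.19-fold and RG512 2.58-fold higher in the hypohydrated sample, and 4.86-fold, 4.91-fold and 4.07-fold as deposited. R596 and R447 had a hypohydrated value 1.5-fold and 1.62-fold higher, and R447 passed 2-fold as deposited (2.28-fold).

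Within the 2-day stage, whose columns entered the filter but not the 30-day difference, the hypohydrated sample had many of the higher members at lower values. At least 2-fold lower were 24 of the 87 (27.6%) and higher were 4 (4.60%), against 12.0% and 15.7% of all tested probes. The median difference was -0.66 log2 units, and 63 of the 87 lay below 0. Of the 62 that were also higher at 2 days in euhydrated rats, a property read from 1 of these columns, 19 were at least 2-fold lower and 1 was higher. Among the 66 lower members 11 were higher and 5 lower, with a median of 0.08. As deposited, 28 of 77 higher members were at least 2-fold lower and 4 higher, and with median scaling 32 of 93 and 4. Of all tested probes 16.1% were lower and 22.5% higher as deposited, and 17.6% and 21.3% with median scaling. R596 was at least 5.80-fold, R609 2.36-fold and R447 2.17-fold lower, and RG132, a lower member, was 4.34-fold higher. As deposited these were 35.6-fold, 2.21-fold and 6.59-fold lower and 7.64-fold higher.

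The members also differed in their identifiers, which the rule did not use. The identifiers begin with R (508 of 884) or RG (376), and the sources used here do not say what the prefixes stand for. Of the kept probes 389 had R and 274 (41.3%) had RG. Among the higher members 69 had R and 18 (20.7%) had RG, and among the lower members 33 had each. In the class higher at both times 52 of 62 had R. Put the other way, 17.7% of kept R probes and 6.57% of kept RG probes were higher members, and 8.48% and 12.0% were lower members. The median 30-day difference was 0.04 log2 units for R probes and -0.06 for RG probes. When each prefix was normalized by itself, an alternative chosen after the data were seen, 26 of 85 higher members (30.6%) and 22 of 64 lower members (34.4%) had RG. In the deposited values the shares were 22.1% and 44.7%.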

How the data were processed

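Total RNA from rat hypothalamus was reverse transcribed into cDNA carrying radioactive dATP, primed with a mix from Clontech, according to the labels' protocols. The authors deposited 1 table of processed intensity values, 884 probes in 6 columns, none missing. For the array design, scanner, background correction and normalization the sources used here give nothing. The scale of each column is unknown, and the values were taken as linear intensities since all are positive and right-skewed. The labels do not say how many animals a sample holds.

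The columns were quantile-normalized (ties averaged), which gives each sample the same distribution. Values under the 10th percentile (0.143) were set to it, and probes with a mean of the 6 normalized values, before this floor, above the 25th percentile of probe means (0.338) were kept, 663 in all. Members and calls used a 2-fold threshold, over kept probes not at the floor in both samples compared. In each class and direction the named probes are the 2 members with the largest 30-day difference above the floor in both samples. For the 30-day hypohydrated comparison they are the 2 with the largest difference in the members' direction and the 2 with the largest against it. Probes nearest the threshold are named too. The members, classes and lists were chosen with earlier results of these data known. Each group holds 1 sample, so no test was run, and the number of arrays limits the precision. The 7 comparisons were recomputed under other normalizations, floors, filters and thresholds. A share was called moved if it lay outside a binomial interval, at level 0.95, around the main share. A count was called moved by its ratio to the main count. The interval treats probes as independent, so it is no test and served only to choose values to print. A value left out may still differ. Planned gene lists and marker checks could not be used without gene names. Calculations used Python 3.11.15, numpy 2.4.6, pandas 2.3.3, scipy 1.17.1 and matplotlib 3.10.9. Only the steps that normalize, filter and choose the members were run on simulated data with known changes at 30 days.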

Additional observations from a re-analysis of the deposited data

Results flagged for a closer look

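There were 6 named probes that moved at least 2-fold in opposite directions in the 2 hydration states at the same heat stage. Each difference is between 2 samples, and the difference between hydration states was not tested. At 30 days R689 was at least 1.05 log2 units higher in euhydrated rats, with its control at the floor, and had -1.45 in hypohydrated rats, where it had 0.777 without heat and 0.284 at 30 days. R033 had 1.08 and -1.06, with 0.346 and 0.733 in the control and at 30 days and 0.846 and 0.406 in hypohydrated rats. RG127 had -1.10 and 1.35, RG356 had -1.45 and 1.08, and RG512 had -1.57 and 1.04. In the deposited values the hypohydrated rises of RG127, RG356 and RG512 were 1.39-fold, 1.01-fold and 1.05-fold, so their opposite moves past 2-fold were lost there. R033 lost its own too, since its euhydrated rise was 1.86-fold as deposited beside a 2.01-fold fall in hypohydrated rats. R689 kept both moves, at 3.55-fold and 2.51-fold. These are all 5 members with such opposite moves at 30 days, against 15 members past 2-fold in the same direction in both states.

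At 2 days R596 was 2.32 log2 units higher in euhydrated rats and had -3.40 in hypohydrated rats, with its 2-day hypohydrated value at the floor. Its deposited values were 0.113 in the control and 0.849 at 2 days, and 1.30 without heat and 0.0239 at 2 days in hypohydrated rats. Of all 153 members, 18 were past 2-fold in opposite directions at 2 days, 17 of them in the class higher at both times. In the same direction were 39. Over all 663 kept probes 48 were opposite and 155 the same. Members under 2-fold at 2 days cannot be counted in either, so the classes these fall in follow in part from the split.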

How the results depend on the processing

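No member that was kept turned the sign of its 30-day difference with the values as deposited, median scaling or normalization within each prefix. The other alternatives changed only the threshold, the filter or the floor, which cannot turn a sign, so nothing is read from them here. Of the 153 members, 137 stayed past 2-fold on their side with quantile normalization, with the values as deposited and with median scaling (73 higher and 64 lower). With the values as deposited the members were 77 higher and 114 lower, and the median of all kept probes at 30 days was -0.16 log2 units. No paired analysis was possible because the labels give no replicate numbers that groups share and no result comes from a test. An additive fit over heat stage and hydration state was not run. Each comparison is between 2 samples, so leaving out either gives no value.

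In the values below, "along" and "against" are the percentages of members past the threshold in the direction of the 30-day change and against it. With quantile normalization they were 9.80 and 3.27 for 30 days and 19.6 and 37.9 for 2 days in hypohydrated rats. For water deprivation without heat they were 48.4 and 1.31. Hypohydration gave 5.88 and 25.5 at 30 days, and 5.88 and 22.9 at 2 days. In the same order, 5.50, 23.2, 19.8, 17.9 and 15.7 percent of all tested probes were higher. Lower were 5.66, 25.5, 17.7, 17.9 and 12.0 percent. Water deprivation and hypohydration at 30 days each reuse a column that chose the members, so nothing is read from those shares. As deposited, the moved values were against 1.05 for 30 days and 27.7 for 2 days in hypohydrated rats. They were along 38.2 and against 7.85 for water deprivation, and against 34.0 and 30.4 for hypohydration at 30 and 2 days. All tested probes there had 0.151, 11.2, 33.6, 30.3 and 22.5 percent higher, in the order above. Lower were 9.35, 30.9, 4.07, 7.39 and 16.1 percent. The opposite class at 2 days held 25 of 191 members as deposited. With median scaling that class held 23 of 180 and along was 3.89 for 30 days in hypohydrated rats, where all probes had 1.06 higher and 4.22 lower. With the floor at the 25th percentile the opposite class held 5 of 132. Along was 1.52 there for hypohydration at 30 days, with 17.2 higher and 16.3 lower over all probes. With no floor the class held 22 of 161 and against was 4.97 for water deprivation, with 20.2 and 18.3 over all probes. With no filter 91 of 208 members were under 2-fold at 2 days. With a mean above the median of probe means the members were 45 higher and 29 lower, with 44 in the same class at 2 days and 19 under 2-fold.

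At a 1.5-fold threshold the members were 139 higher and 140 lower, 156 in the same and 47 in the opposite class. Along and against were 21.5 and 10.0 for 30 days in hypohydrated rats, and 57.7 and 10.8 for water deprivation. Hypohydration gave 19.0 and 35.5 at 30 days, and 12.9 and 36.9 at 2 days. In the same order, 14.7, 31.3, 27.8 and 25.7 percent of all tested probes were higher by this threshold. Lower were 15.0, 30.4, 30.3 and 24.8 percent. At a 3-fold threshold the members were 37 higher and 19 lower, with 26 in the same class, 30 under 3-fold and 0 opposite. Along and against were 0 and 0 for 30 days in hypohydrated rats, and 10.7 and 16.1 for 2 days. Water deprivation gave 37.5 and 0, and hypohydration 0 and 5.36 at 30 days and 0 and 5.36 at 2 days. In the same order, 1.22, 13.0, 11.6, 9.68 and 5.93 percent of all tested probes were higher by this threshold. Lower were 0.765, 14.6, 6.51, 6.81 and 3.04 percent. Low signal limits the folds of values at the floor, which have no order. The cause of these moves was not tested.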
